A study of Homo sapiens with 4 samples.

Results

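The terminal 2 Mb of the human autosomes were examined in H3K9me2 CUT&RUN peak lists from K562 cells. A peak was a member when its midpoint lay within 2 Mb of either end of chromosomes 1 to 22 on hg19, and the short-arm ends of the acrocentric chromosomes (13, 14, 15, 21 and 22) were left out. This gave 39 ends and 78 Mb. The 4 lists held 5034 (control 1), 5606 (control 2), 5452 (knockout 1) and 5665 (knockout 2) member peaks, together 21757 of the 1000000 deposited peaks. The comparison region was the stretch from 5 to 15 Mb from the same ends, 390 Mb in all, with 33947, 34648, 34284 and 34711 peaks in the same order of libraries, which is kept below. All coordinates are on hg19.

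K562 is an established human myeloid leukemia line grown in RPMI medium with serum. The study compared 2 control libraries, from K562 cells given a CRISPR guide against HPRT, with 2 libraries from K562 cells given a guide against CUX1, which encodes a homeodomain transcription factor. Permeabilised cells were bound by an antibody to H3K9me2, the DNA around the bound nucleosomes was released by protein A/G-MNase, and enriched regions were deposited as 1 broad peak list per library. The labels do not say whether the 2 libraries of a group came from separate cultures. Nor do they say whether the edited cells were 1 clone or a pool. No p-value here therefore measures the spread between cultures or clones. Permutation p-values rest on these libraries alone. The SEs and p-values of the window fits (limma) also draw on the spread of all windows. Peak lists carry no measure of CUX1 expression, and the knockout could not be checked in them.

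Dimethylation of lysine 9 on histone H3 is placed mainly by the methyltransferases G9a and GLP. It forms broad, low domains over silent chromatin, much of it gene-poor and at the nuclear lamina. The megabases next to human telomeres are, at most ends, gene-rich, GC-rich chromatin. Some ends also carry large gene families and repeats shared between chromosomes, where short reads are hard to place.

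Every list held exactly 250000 peaks, so the number of peaks was fixed and the weakest peak differed between lists. The lowest −log10 p was 1.25 and 1.27 in control cells against 1.49 and 1.35 in the knockouts. Peaks covered 23.7%, 23.3%, 14.5% and 20.1% of the autosomes, and knockout 1 had the lowest coverage and the narrowest peaks (median 1324 bp, against 2335, 2275 and 1900 bp). Read depth is unknown, because the lists hold no read counts. Most listed peaks were weak. The median −log10 q of terminal peaks, as the authors' peak caller gave it, was 0.013, 0.034, 0.041 and 0.048. Only 1, 19, 1 and 29 terminal peaks had q of 0.05 or less. The coverage, width and sharing values below therefore rest almost wholly on peaks that do not pass that limit in their own list.

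H3K9me2 peaks covered less of the terminal 2 Mb than of the chromatin further in, in every library. Terminal coverage, the share of bases under at least 1 peak, was 17.7% and 18.9% in control cells against 10.5% and 15.9% in the knockouts. Coverage at 5 to 15 Mb was 24.3% and 24.3% in control cells against 14.5% and 20.6% in the knockouts. Terminal coverage was therefore 0.728, 0.777, 0.722 and 0.771 times the inner coverage. The difference, terminal minus inner, was -6.61, -5.41, -4.04 and -4.73 percentage points, a mean of -5.20 points (SD 1.09, 4 of 4 libraries lower). The two-sided exact sign-flip permutation test gave p = 0.13, the smallest value that 4 libraries allow.

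The deficit lay mostly in the number of peaks and less in their width. The terminal 2 Mb held 64.5, 71.9, 69.9 and 72.6 peaks per Mb, and the inner region held 87.0, 88.8, 87.9 and 89.0. The ratio of terminal to inner density was 0.741, 0.809, 0.795 and 0.816. The median terminal peak was 2314, 2201, 1153.5 and 1757 bp wide, and the median inner peak 2356, 2293, 1292 and 1870 bp. The width ratio of 0.982, 0.960, 0.893 and 0.940 was nearer to 1 than the density ratio in every library. Both measures were lower at the ends in 4 of 4 libraries.

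Wide peaks were also less common among the terminal ones. Peaks of at least 5 kb made up 12.3%, 10.8%, 1.71% and 6.53% of terminal peaks and 13.2%, 12.3%, 2.36% and 7.97% of inner peaks. The strength of single peaks differed little between the regions. The median fold enrichment over background, as the authors' peak caller gave it, was 1.77, 1.73, 1.96 and 1.79 at the ends and 1.77, 1.72, 1.95 and 1.77 further in.

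**Figure D1:**
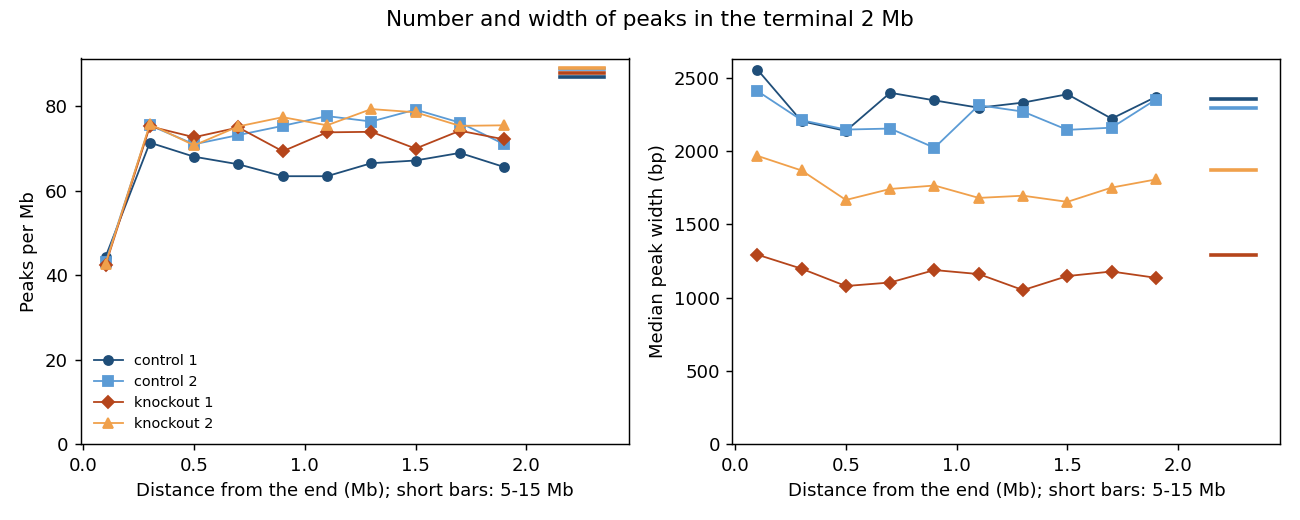
Peaks per Mb (left) and median peak width in bp (right) for the 10 steps of 200 kb from the end, pooled over 39 ends, 1 line per library, with short bars at the right for 5 to 15 Mb. The first step has the lowest density of the terminal 2 Mb in all 4 libraries, between 42.4 and 44.4 peaks per Mb, and the widest peaks.

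Within the terminal 2 Mb the last 200 kb stood apart. Coverage there was 12.9%, 11.8%, 7.0% and 10.7%. The other 9 steps of 200 kb ranged from 17.5% to 18.6% in control 1, from 18.2% to 21.9% in control 2, from 10.3% to 11.7% in knockout 1 and from 14.7% to 17% in knockout 2. The last step was thus below all other steps in each library, and the other 9 showed no steady slope in the plot of coverage by distance. The last step also had the lowest density, at 44.4, 43.1, 42.4 and 42.7 peaks per Mb. Its peaks were the widest of the 10 steps, with medians of 2555.5, 2409, 1293 and 1967 bp.

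Coverage returned to the inner level over several megabases. Relative to 5 to 15 Mb, the first megabase stood at 0.709, 0.721, 0.698 and 0.734. The second stood at 0.748, 0.834, 0.745 and 0.808. From 2 to 3 Mb the ratio was between 0.802 and 0.853, and from 4 to 5 Mb between 0.916 and 0.940. The 2-Mb limit of the definition therefore fell inside a gradient, and the ratio rose from each of the first 5 megabases to the next in all 4 libraries.

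The distance from the end to the outermost peak was close between lists at some ends and not at others. How close the spacing of peaks alone would bring the lists was not tested. The end of 7q had peaks closest to the tip in 3 lists, with the first at 10.0, 10.1, 20.3 and 10.1 kb; in knockout 1 the first peaks of 9p (10.3 kb) and 17p (15.7 kb) were closer. At 1p the first peak lay 761, 754, 756 and 752 kb from the end, the farthest of all. At 20q it lay at 138 kb in every list, within a range of 0.558 kb. The 4 lists placed the outermost peak within 10 kb of each other at 16 of 39 ends, and the median range was 11.3 kb. The widest range, 199 kb, was at 9p. In every list, 17 ends had no peak in their last 100 kb or more and 4 ends none in their last 200 kb.

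Stretches of at least 50 kb without a peak in any list made up 11.3% of the terminal 2 Mb (77 stretches, 8.82 Mb, 35 ends) and 1.94% of the inner region (75 stretches, 7.56 Mb). Of the terminal stretches, 30 touched the end itself and held 4.67 Mb. Gaps in the assembly and repeats without unique reads were not looked up here, and their part in these stretches was not tested. With all such stretches left out, a choice made after seeing the data, terminal coverage was 20.0%, 21.3%, 11.8% and 17.9%, and the ratio to the inner region was 0.805, 0.860, 0.798 and 0.852. The deficit was smaller but still present in 4 of 4 libraries. Read only inward of the outermost peak of any list, which begins at a peak by construction, the last 200 kb were covered at 26.7%, 24.4%, 14.4% and 22.1% over 3.78 Mb at 35 ends.

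Most ends shared the deficit. Terminal coverage was below the coverage of the same arm's 5 to 15 Mb in all 4 libraries at 31 of 39 ends (79.5%). For comparison, 28.2% of the 2-Mb pieces of the inner regions were below their own 5 to 15 Mb in all 4 libraries (55 of 195), and 28.7% were above it. By library, 36, 34, 34 and 34 ends were lower, 36, 35, 33 and 33 had fewer peaks per Mb, and 22, 25, 33 and 26 had narrower ones. The terminal window was below every one of its 5 inner pieces at 26 ends, by the mean of the 4 libraries. At 3 ends (18p, 19q and 20p) it was above the inner region in all 4 libraries, and 5 ends (3p, 4p, 5q, 10q and 12p) differed between libraries.

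**Figure D2:**
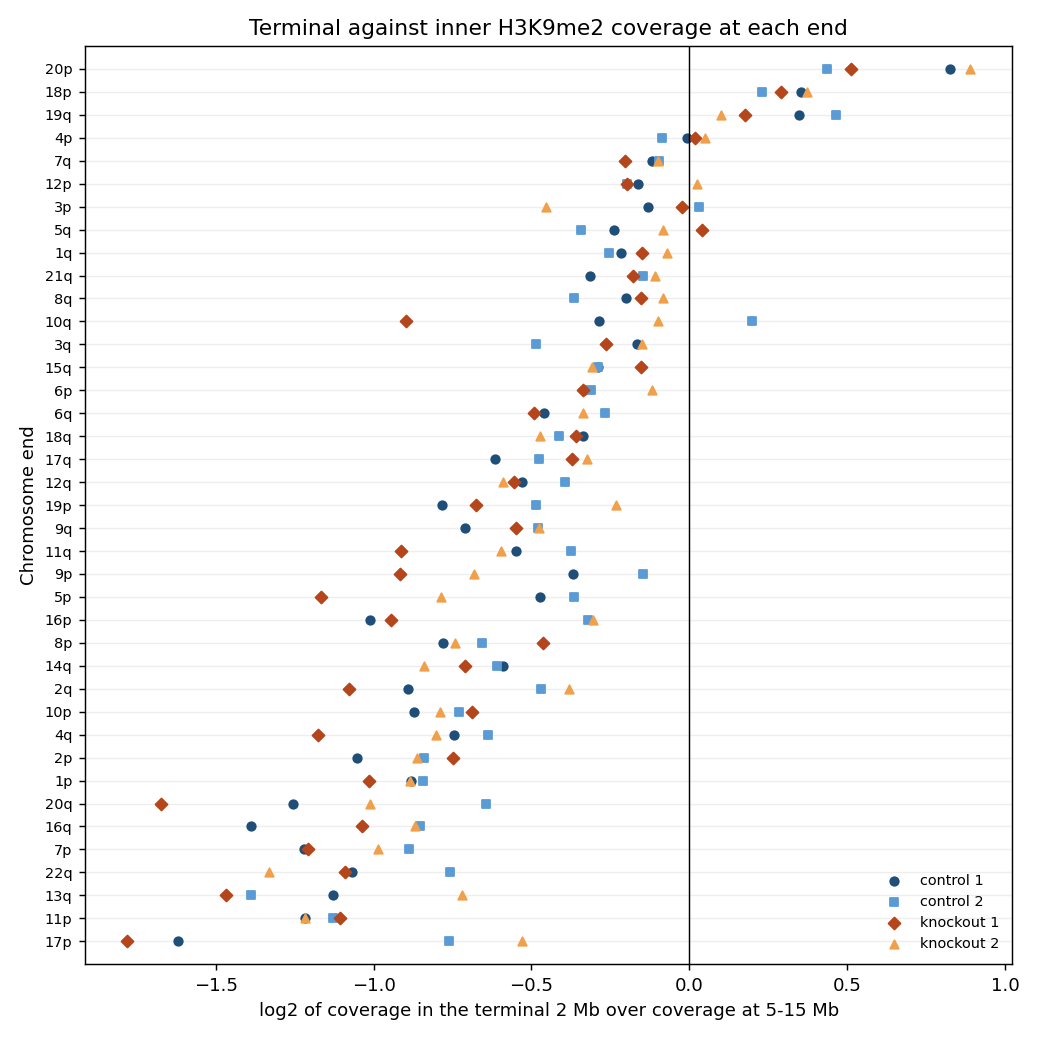
Log2 of terminal over inner coverage for each of the 39 ends (rows, sorted by the ratio of the 4-library means), 1 point per library; 0 means equal coverage. Points of all 4 libraries lie left of 0 at 31 ends and right of 0 at 3 ends (18p, 19q and 20p).

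The level of an end ran with the level of its arm. Across the 39 ends, Pearson's r between terminal and inner coverage was 0.820, 0.881, 0.779 and 0.853. This is a description across ends of the same 4 lists, in which the 2 regions of an end share a library and a chromosome arm. Terminal coverage ranged from 2.63% to 37.9% in control 1, from 2.46% to 39.9% in control 2, from 2.08% to 22.1% in knockout 1 and from 2.49% to 30.8% in knockout 2.

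The 5 most covered ends by the mean of the 4 libraries were 18p, 3p, 19q, 21q and 7q. The 18p end was covered at 37.9% and 34.9% in control cells against 22.1% and 30.8% in the knockouts. The 3p end was covered at 37.2%, 39.9%, 19.7% and 25.5%. The 19q end, which carries a large cluster of KRAB zinc finger genes, was covered at 35.1%, 38.8%, 19.7% and 26.6%. At each of these ends the 2 controls lay above the 2 knockouts. The 21q end had 32.8%, 35.2%, 18.4% and 30.6%, and the 7q end had 35.1%, 35.2%, 16.9% and 28.9%. At both, the 2 controls again lay above the 2 knockouts. Knockout 1 was far below the other 3 libraries, and knockout 2 lay closer to the controls than to knockout 1, as at 18p.

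The 5 least covered ends were 22q, 13q, 17p, 18q and 2q. The 22q end was covered at 2.73%, 2.84%, 2.43% and 2.49%, with 35, 39, 57 and 39 peaks in 2 Mb. The 13q end had 3.49%, 2.46%, 2.20% and 2.97%, and the 17p end 2.63%, 3.13%, 2.08% and 3.49%. The 18q end had 5.03%, 2.91%, 3.60% and 2.70%, and the 2q end 3.90%, 3.94%, 3.40% and 3.99%. These ends differed little between libraries, and their inner regions were sparse too: 10 ends, these 5 among them, had an inner control mean under 10%. The terminal deficit was present in both classes, with pooled ratios of 0.757, 0.805, 0.635 and 0.811 at the 10 sparse ends and 0.726, 0.776, 0.734 and 0.768 at the other 29.

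**Figure D3:**
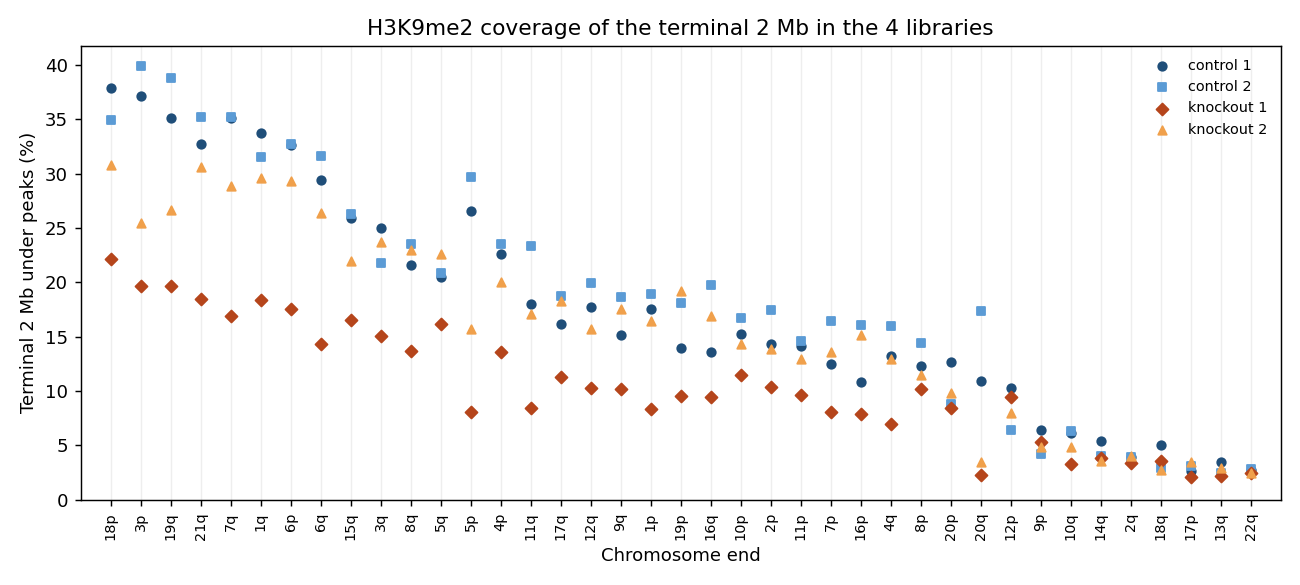
Percent of the terminal 2 Mb under peaks at each of the 39 ends, sorted by the mean of the 4 libraries, 1 point per library. Coverage falls from a mean of 31.4% at 18p to 2.62% at 22q, and the 20q end shows both knockouts (2.33% and 3.52%) far below both controls (11% and 17.4%).

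Relative to its own arm, the 20p end was the most covered, and it was not a highly covered end. Its terminal 2 Mb, where beta-defensin genes lie, had 12.7%, 8.85%, 8.45% and 9.86% against 7.16%, 6.55%, 5.92% and 5.32% further in, ratios of 1.77, 1.35, 1.43 and 1.85. The ratios were 1.28, 1.17, 1.22 and 1.29 at 18p and 1.27, 1.38, 1.13 and 1.07 at 19q, and at 4p they were close to 1 (0.994, 0.941, 1.01 and 1.03). The strongest relative deficits were at 17p, 11p, 13q and 22q. At 11p, whose inner region was well covered (32.8%, 31.8%, 20.7% and 30.1%), the terminal 2 Mb had 14.1%, 14.6%, 9.61% and 13.0%, ratios of 0.430, 0.458, 0.465 and 0.431. The ratios at 17p were 0.326, 0.590, 0.291 and 0.693, those at 13q 0.457, 0.383, 0.362 and 0.607, and those at 22q 0.477, 0.591, 0.470 and 0.397. The deficit at 11p was the most even across libraries of these 4.

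Ends were also grouped by the genes they are known to carry. The 4 ends with zinc finger gene clusters (4p, 8q, 12q and 19q) had pooled ratios of 0.964, 0.965, 0.936 and 0.925, nearer to 1 than the ratio over all ends. They were not alike, since 12q alone had 0.693, 0.761, 0.681 and 0.664. The 1q end, with a large olfactory receptor cluster, had ratios of 0.861, 0.838, 0.901 and 0.953. The 4q and 10q ends, which carry the D4Z4 macrosatellite with its DUX4 genes, had pooled ratios of 0.654, 0.735, 0.469 and 0.640. The last 200 kb of 4q held no peak in any list, as at 1p, 3q and 5q. Those of 10q were covered at 16.7%, 13.2%, 4.19% and 8.15%. The 16p end, which carries the alpha-globin genes, gave ratios of 0.496, 0.801, 0.520 and 0.809, which divided the libraries by number and not by group. The long arms of the acrocentric chromosomes had pooled ratios of 0.748, 0.800, 0.766 and 0.793. Short-arm ends (0.705, 0.753, 0.693 and 0.733 over 17 ends) had slightly lower ratios than long-arm ends (0.747, 0.797, 0.746 and 0.802 over 22 ends) in each library.

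Libraries placed their terminal peaks in partly different places, within groups as well as between them. The Jaccard index of covered terminal bases, the shared bases over the bases covered in either list, was 0.222 between the controls and 0.154 between the knockouts, and 0.151 to 0.230 between a control and a knockout. The inner region gave 0.232, 0.154 and 0.157 to 0.226. All 3 pairs with knockout 1, the list with the lowest coverage, had the lowest values in both regions, and the index depends on how much each list covers. On average over the 6 pairs and both directions, 49.1% of terminal peaks touched a peak of the other list by at least 1 bp, and 14.6% overlapped one by at least 50% of both peaks.

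Bases under a peak in all 4 lists amounted to 0.799 Mb, or 1.02% of the terminal 2 Mb, in 904 stretches, against 1.19% of the inner region. Bases under peaks of both controls and no knockout made up 2.85% of the terminal 2 Mb, and bases under peaks of both knockouts and no control 0.993%. The inner region held more of both, at 4.12% and 1.47%. The ends with the most shared bases were 1q (72388 bp), 7q (63841 bp), 21q (62724 bp), 18p (56546 bp) and 19q (48214 bp), and 4 of these 5 were among the 5 most covered ends. The longest stretch was 4111 bp at chr5:148891-153001 on 5p, under peaks with fold enrichments of 1.78, 1.59, 2.08 and 1.81. The next were 4047 bp at 8q, 1079 kb from the end, then chr6:169520214-169524153 on 6q (3940 bp), chr5:180325476-180328957 on 5q (3482 bp) and chr18:532170-535615 on 18p (3446 bp). All 5 were made of peaks of modest enrichment.

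The 4 widest terminal peaks were all in control lists, and the knockouts covered a smaller part of them than the other control did in 3 of the 4. The peak at chr3:1773730-1789498 (15769 bp, control 2) was covered at 79.5% by control 1 and at 3.56% and 20.9% by the knockouts. The peak at chr5:1174466-1189737 (15272 bp, control 1) was covered at 62.2% by control 2 and at 10.5% and 26.6% by the knockouts. The peak at chr21:47888230-47903595 (15366 bp, control 1) was covered at 43.3% by control 2 and at 34.6% and 25.5% by the knockouts. The exception was chr1:247686244-247701173 (14930 bp, control 1), covered at 23.3% by control 2 and at 22.2% and 39.2% by the knockouts. These peaks were selected for their width in a control list, so the knockouts were set against the other control. That comparison is not even, because the control lists covered more of the autosomes (23.7% and 23.3%, against 14.5% and 20.1%). Their peaks were also wider. The smaller part covered in the knockouts cannot be told apart from this difference between whole lists.

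Terminal coverage was lower in the knockout libraries, and on average by a like proportion as further in. Over the 39 ends the controls had 18.3% ± 0.848 (SD, n = 2) and the knockouts 13.2% ± 3.84 (SD, n = 2), a difference of -5.11 points or -27.9%. At 5 to 15 Mb the controls had 24.3% ± 0.00391 and the knockouts 17.6% ± 4.32, a difference of -27.7%. Knockout 1 stood at 0.573 of the control mean at the ends and 0.598 further in, and knockout 2 at 0.869 and 0.849. The size rested largely on knockout 1, since without it the terminal difference was -2.39 points. Both knockouts were below both controls in both regions, and the two-sided exact permutation test gave p = 0.33 for each, the smallest value that 2 against 2 allows. The knockout libraries differed from each other by more than knockout 2 differed from the controls. With 1 common limit on −log10 p for all lists the difference turned: terminal coverage was then 6.98% and 9.37% in control cells against 10.5% and 10.4% in the knockouts. That limit was the minimum of knockout 1, so by construction it removed no peak from that list (5452 terminal peaks). The terminal peaks went from 5034 to 2131 in control 1, from 5606 to 2815 in control 2 and from 5665 to 3679 in knockout 2. With 1 common limit on −log10 q, terminal coverage was 3.62% and 10.0% against 6.66% and 11.1%. With the strongest peaks of each list up to equal covered length, it was 10.4% and 12.3% against 10.5% and 12.1%, a difference of -0.051 points. Whether the knockout cells carry less of the mark at the ends and whether the lists differ in depth or cut-off cannot be told apart from these files.

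The ratio of terminal to inner coverage, in which a property common to a whole list enters both terms, did not separate the groups. Its log2 was -0.46 and -0.36 in control cells against -0.47 and -0.38 in the knockouts, a difference of -0.01 (two-sided exact permutation p = 0.667). The spread between libraries of 1 group was larger than that difference, and the sign changed with the setting. The log2 width ratio was -0.03 and -0.06 in control cells against -0.16 and -0.09 in the knockouts (difference -0.08, exact permutation p = 0.33, the smallest possible). The log2 density ratio differed by 0.06 (exact permutation p = 0.667).

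Read end by end, the knockout mean was below the control mean at 38 of 39 ends, against 91.2% of all 2-Mb windows of the autosomes. The exception was 12p, at 10.3% and 6.42% in control cells against 9.42% and 8.02% in the knockouts. Both knockouts were below both controls at 23 of 39 ends, or 59.0%, against 69.0% of all 2-Mb windows, and both were above at none, against 0.530%. With the common limit on −log10 p, both knockouts were above both controls at 23 of 39 ends (67.6% of all windows) and below at 2 (2.13%). With the common limit on −log10 q they were above at 5 of 37 ends tested (34.8% of all windows) and below at 1 (0.859%), and with quantile normalization above at 5 of 39 (22.7%) and below at 5 (22%). The direction of the count at the ends followed that of all autosomal windows in each reading that leaned one way, with a smaller share in that direction. The median ratio of the knockout mean to the control mean was 0.783 over the 39 ends and 0.749 over all 1320 windows tested.

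Coverage of the 20q and 5p ends fell in the knockouts. In a limma fit over 1320 windows of 2 Mb, 20 windows were lower (1.52%) and 1 was higher (0.0758%) at an adjusted p under 0.05. The 2 terminal windows among them, 5.13% of the 39 tested, were both lower. The 20q end (chr20:61025521-63025520) was covered at 11% and 17.4% in control cells against 2.33% and 3.52% in the knockouts. The difference was -11.2 points (SE 2.03, limma with Benjamini-Hochberg adjustment, adjusted p = 1.02e-05), and the knockout mean was 0.206 of the control mean. The SD was 4.52 points in the controls and 0.842 in the knockouts, and the SE also draws on the spread of all windows. The number of peaks was lower as well, at 96 and 145 in control cells against 52 and 50 in knockout cells. The 5p end (chr5:1-2000000), which carries TERT, the gene of the telomerase catalytic subunit, was covered at 26.6% and 29.7% in control cells against 8.11% and 15.7% in the knockouts. The difference was -16.3 points (SE 4.60, limma adjusted p = 0.0287), a ratio of 0.422.

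Both losses ran along the whole 2 Mb and continued inward. At 20q and at 5p, both knockouts were below both controls in 10 of 10 steps of 200 kb, against 49.0% of all 200-kb windows of the autosomes. These steps are parts of the 2 windows called above and are no separate evidence for them. The same order held for 9 steps at 3p, 8 at 19q and 7 at 6q, 12q and 18p. It held for 1 step at 5q, 9q, 19p and 20p and for 0 at 12p and 16p. The inner values were lower too: the knockout mean was 0.272 of the control mean at 5 to 15 Mb from the 20q end, with 26.2% and 27.1% in control cells against 7.42% and 7.10% in the knockouts. From the 5p end it was 0.602, with 36.9%, 38.3%, 18.2% and 27.1%. At 20q the loss was thus not a property of the terminal 2 Mb alone, and in both regions the 2 knockouts lay close together.

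The limma call at 20q held with each library left out in turn, and it was lost with quantile normalization (adjusted p = 0.0551), without the filter on low windows (0.0882) and with a common limit on −log10 p (-4.04 points, adjusted p = 0.190) or −log10 q (-3.86 points, 0.794). At 5p the call was lost under these 4 settings too (limma adjusted p between 0.0815 and 0.794) and without control 1 (0.862) or control 2 (0.842). The 5p difference itself was -12.7 points with quantile normalization, -16.3 without the filter, and -17.8 and -14.7 without control 1 or 2, but -6.13 and -4.94 with the common limits.

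**Figure D4:**
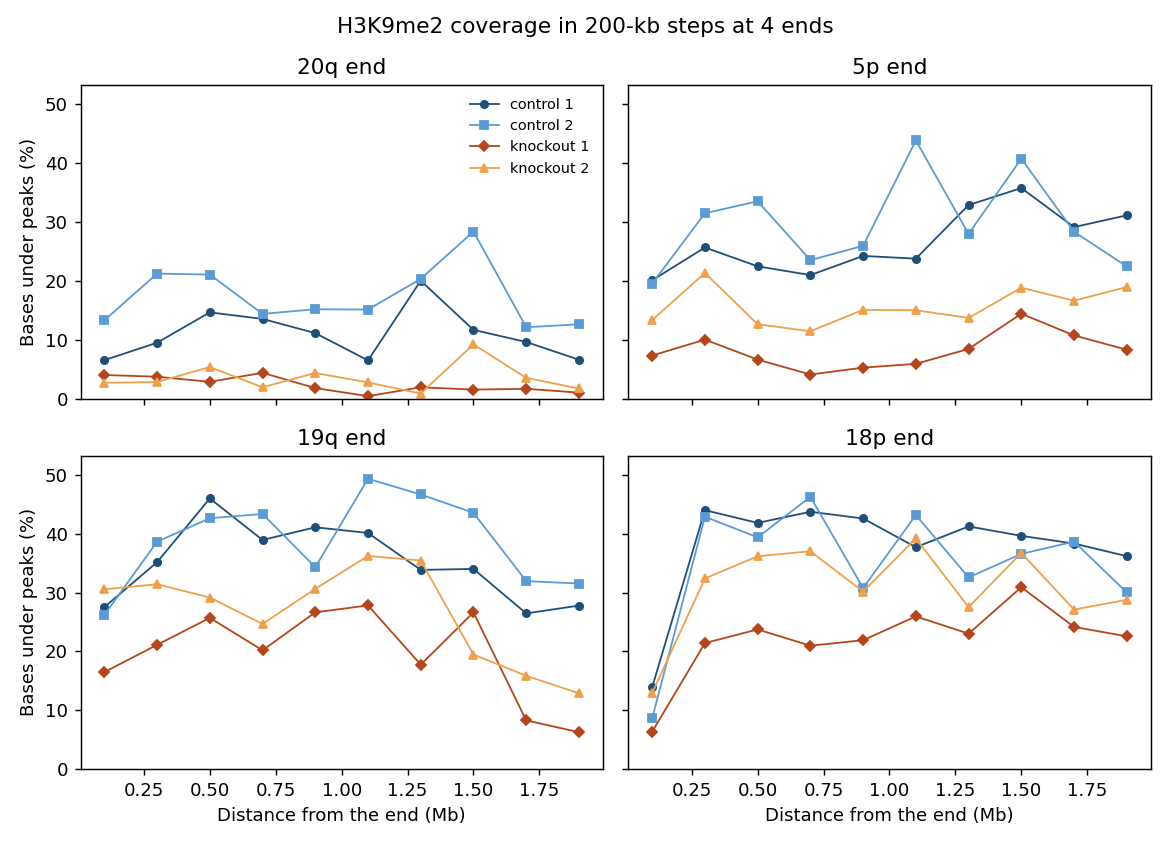
Percent of bases under peaks in 200-kb steps of the terminal 2 Mb at 20q, 5p, 19q and 18p, 1 line per library. At 20q and 5p both knockout lines lie below both control lines in all 10 steps, while at 19q and 18p the lines of knockout 2 and a control cross in some steps.

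In windows of 200 kb, 7 of 373 terminal windows (1.88%) were lower in the knockouts by limma at an adjusted p under 0.05. None was higher. Of all 13152 windows, 0.882% were lower and 0.0380% higher. At an unadjusted p under 0.05, 52 terminal windows (13.9%) were lower and 0 higher, against 16.3% lower and 0.509% higher of all windows. The terminal share was thus above that of all windows among adjusted calls and below it among unadjusted ones. In 2-Mb windows it was above in both. There 17.9% of terminal windows against 12.2% of all were lower at an unadjusted p under 0.05. Both knockouts were below both controls in 155 of 373 terminal windows (49.0% of all windows) and above in 9 (3.41%). The largest change was on 11q, 1.4 to 1.6 Mb from the end (chr11:133406517-133606516), at 33.1% and 38.7% in control cells against 7.44% and 15.3% in the knockouts (-24.5 points, SE 6.40, limma adjusted p = 0.0240). On 5p, the window at 1.0 to 1.2 Mb had 23.8%, 43.8%, 5.90% and 15% (-23.3 points, SE 6.32, limma adjusted p = 0.0346). The controls differed widely in that window (SD 14.2, against 6.44 in the knockouts), and neither overlapped a knockout. The SE of 6.32 is smaller than either SD because limma draws on the trend over all windows. It does not measure the spread of the libraries in this window.

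Of the 7 windows, 4 were on 20q. The window at 1.2 to 1.4 Mb from the 20q end (chr20:61625521-61825520) had 20.0% and 20.3% in control cells against 1.92% and 0.865% in the knockouts (-18.8 points, SE 3.80, limma adjusted p = 0.00136). The windows at 0.4 to 0.6 and 0.2 to 0.4 Mb changed by -13.7 and -12.1 points (limma adjusted p = 0.0453 and 0.0441). At 0.2 to 0.4 Mb the controls were far apart (9.49% and 21.2%, SD 8.30), and limma's SE was only 3.38. The other 2 windows, named after their values were seen, were 1.0 to 1.2 Mb from the 20q end (-9.22 points) and the last 200 kb of 14q, where variable segments of the immunoglobulin heavy chain lie. The 14q window had 14.1% and 8.19% in control cells against 1.37% and 2.1% in the knockouts (-9.43 points, SE 2.63, limma adjusted p = 0.0441), and with the common limit on −log10 p its difference was -0.08 points. None of the 7 windows passed with quantile normalization, without the low-window filter or with a common limit, and none passed in all 4 fits that left out a library. The differences were the same without the filter and stayed between -19.3 and -7.45 points over the called windows with quantile normalization, and they were smaller with the common limits.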

How the data were processed

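H3K9me2 CUT&RUN was analysed in 4 K562 libraries, 2 control and 2 CUX1 knockout. MACS2 2.1.0, deepTools 3.5.1, BWA 0.7.17, SAMtools 1.16.1 and the build hg19 are named, per the submitters' processing notes. Their settings, a possible input or IgG control, and how each list came to 250000 peaks are not given in the sources used here. As deposited by the authors, there was 1 broad peak list per library, with a score, a fold enrichment (a ratio to background), a −log10 p and a −log10 q for each peak. No reads or counts were used. Because list length was equal, peak number cannot measure the total mark, and peak width moves with the cut-off. No peak lay past an hg19 chromosome end, and 14 autosomes had peaks past the hg38 length.

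Overlapping peaks were merged per list; coverage was bases under a peak over all bases, assembly gaps included (Python 3.11.15, pandas 2.3.3). Peaks were assigned by midpoint. Single values were tested by exact permutation over libraries. Windows of 2 Mb and 200 kb, tiled inward from each end and with a mean coverage of at least 1%, were fitted across the autosomes with limma 3.58.1 (R 4.3.3) on percent covered, with a variance trend and Benjamini-Hochberg adjustment, threshold 0.05. The SE of a window is thereby moved towards the trend over all windows, and it can be smaller than its own values would give. Neighbouring windows are not independent. Chromosome lengths came from GenomeInfoDb 1.38.1.

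Named were the 5 most and 5 least covered ends, the 4 highest and 4 lowest ratios of terminal to inner coverage, called terminal windows (up to 5 per direction by size), the 4 widest terminal peaks and the 5 longest stretches in all 4 lists. The members and lists were chosen with earlier results of these data known; gene groups are textbook background, not looked up on hg19. Alternatives were a common −log10 p limit (1.49, the highest of the list minima), a common −log10 q limit (0.0335, the median of all peaks), the strongest peaks of each list up to equal covered length (417 Mb), quantile normalization, no filter, a replicate block and each library left out. The peak-free stretches, the count by peak serial number and leaving libraries out of the within-library comparison were added after seeing the data.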

Additional observations from a re-analysis of the deposited data

Results flagged for a closer look

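At the 4p end, which carries a zinc finger gene cluster, the groups lay on opposite sides of their arm's level, by small margins. The log2 of terminal over inner coverage was -0.01 and -0.09 in control cells against 0.02 and 0.05 in knockout cells, so that both controls were below the inner region and both knockouts above it. The knockout mean was higher by 0.082, about as much as the controls differed from each other. Terminal coverage itself was lower in both knockouts (13.6% and 20.1%) than in both controls (22.6% and 23.6%). The difference was not tested, and it is 1 of 39 ends read in the same way. With a common limit on −log10 p or −log10 q, 4p was above its inner region in all 4 libraries.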

How the results depend on the processing

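The deficit of the terminal 2 Mb against 5 to 15 Mb kept its direction in all 6 alternatives run: it was -2.68 and -2.50 points with common limits on −log10 p and −log10 q and lay between -5.58 and -4.73 points with 1 library left out. The knockout difference in terminal coverage (-5.11 points) reversed with these limits (2.25 and 2.04 points), was -0.051 with equal covered length, and ranged from -7.82 to -2.39 with 1 library left out. The log2 coverage ratio (-0.01) reversed with the −log10 p limit (0.026) and equal covered length (0.023), and was -0.085 with the −log10 q limit, -0.046 against all autosomal bases beyond 2 Mb and -0.042 as a median over ends; its range with 1 library left out, -0.060 to 0.035, reached above 0 without control 2 (0.034) or knockout 1 (0.035). The density ratio (0.06) reversed with the count by serial number (-0.10) and ranged from -0.0062 to 0.12, below 0 without control 1; the width ratio ranged from -0.12 to -0.05. The share of terminal peaks met in another list dropped from 49.1% to 14.6% with 50% reciprocal overlap.

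Counts of called terminal windows moved under most settings. The 2-Mb count of 2 and the 200-kb count of 7 were both 0 with quantile normalization (4 and 23 at an unadjusted p under 0.05 by limma, 10.3% and 6.17% of those tested, against 11.6% and 8.10% of all windows), without the filter (6 and 51; 15.4% and 13.1% against 14.1% and 13.9%), with the −log10 p limit (4 and 26; 10.3% and 7.32% against 28.8% and 12.8%) and with the −log10 q limit (1 and 5; 2.70% and 1.48% against 4.68% and 3.62%). Leaving out 1 library gave 1 to 19 windows of 2 Mb (without control 1, control 2, knockout 1 and knockout 2: 1, 1, 5 and 19) and 0 to 79 of 200 kb (7, 2, 0 and 79); the lone library of a group is then assumed to vary like the others. A paired fit with the replicate block called 3 and 17. Same-numbered libraries deviated together with correlations of 0.19 and 0.08 over 2 pairs, and the labels do not say whether they share a culture or day. Over all windows tested, calls numbered 21 of 2 Mb (0 to 941 over the settings) and 121 of 200 kb (0 to 3849).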

Other observations

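Terminal peaks that passed a limit on q were few and unevenly spread over the lists. The limit is not one of enrichment: in knockout 1 the passing peak was 2.48-fold, and a 19p peak of 3.68-fold did not pass. Peaks with q of 0.05 or less numbered 1 and 19 in control cells against 1 and 29 in knockout cells, and of these 1, 13, 0 and 19 met a peak of every other list. The inner region had 2, 73, 1 and 101, unevenly spread as well. As a share of all peaks these were 0.339% at the ends against 0.211% further in for control 2, and 0.512% against 0.291% for knockout 2. The sites below were chosen after their values were seen. A site about 680 kb from the 19p end was listed in all 4 libraries, and its peak in knockout 2 (chr19:680469-681110) had an enrichment of 5.75-fold with a −log10 p of 16.2. A site on 7p (chr7:1098197-1100001 in control 1, 4.40-fold) and a site on 17q (chr17:79518293-79520514 in control 2, 2.93-fold) were also in all 4 lists.

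At the 1q end, in the olfactory receptor region, overlapping peaks were listed in both knockouts and in neither control. The peaks were chr1:248566587-248567789 in knockout 1 (2.48-fold, −log10 q 1.74) and chr1:248567481-248568561 in knockout 2 (3.88-fold, −log10 q 10.5). No other terminal peak with q of 0.05 or less lacked a counterpart in both control lists. Such peaks were not counted further in, so whether this site is unusual cannot be told. The limit on q did not follow −log10 p within knockout 1 either. Its 1q peak passed with a −log10 p of 3.68, while its peaks at 17p (5.05) and 19p (4.86) did not pass.

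Serial numbers in the peak names ran higher than the number of listed peaks in every library, up to 430436, 386156, 448404 and 381380. Counting serial numbers over each region, a reading of the names that nothing in the labels states, the terminal 2 Mb spanned 129, 115, 119 and 108 per Mb and the inner region 153, 137, 156 and 135, so the deficit was present in this count as well. Of the serial numbers at the ends, 50.2%, 62.7%, 58.7% and 67.3% were listed, against 56.9%, 64.8%, 56.4% and 66% further in. The share was lower at the ends in both controls and higher in both knockouts.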
